A study of Homo sapiens with 4 samples.

Results

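The brain patterning homeobox genes *OTX1*, *OTX2*, *EMX1*, *EMX2*, *VAX1*, *EN1*, *EN2*, *GBX1* and *GBX2* were selected by gene symbol, and all 9 symbols were found once among the 20242 promoters measured. Chromatin immunoprecipitation sequencing (ChIP-seq) signal for trimethylated lysine 27 of histone H3 (H3K27me3) and trimethylated lysine 4 (H3K4me3) was compared between cells without Dox (−Dox) and day 3 cells that had received 1 µg/ml doxycycline (Dox), referred to as +Dox. All 4 libraries came from JMJD3c-hESCs, made from SEES-3 human embryonic stem cells (hESCs) by stable insertion of a Dox-dependent, HA-tagged catalytic domain of the H3K27 demethylase JMJD3 (JMJD3c). The −Dox cells therefore carry the same transgene without induction, and Dox without the transgene was not analysed here. Whether the line is 1 clone is not stated in the sources used here. There was 1 library for each mark and condition, so no difference below has a replicate check and no p-value is given.

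Homeobox genes encode transcription factors with a DNA-binding homeodomain. *OTX1* and *OTX2* specify the forebrain and midbrain, *EMX1* and *EMX2* the dorsal forebrain that forms the cerebral cortex, and *VAX1* the ventral forebrain and optic stalk. *EN1* and *EN2* act at the boundary between midbrain and hindbrain, and *GBX2* in the anterior hindbrain, where mutual repression with *OTX2* places that boundary. *OTX2* is also expressed in pluripotent cells. Polycomb complexes deposit H3K27me3 at silent developmental genes, and promoters that carry H3K4me3 as well are called bivalent.

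Each value is a sum of read coverage, corrected for library size, over 3 kb on each side of 1 transcription start per gene. All windows have the same length, so values of a mark can be set side by side between genes. A value above 20 counted as marked. The promoter windows together held about 172128 and 198536 reads in the H3K27me3 libraries and 723192 and 970189 in the H3K4me3 libraries, and a value of 20 stood for about 15.8 to 21.1 reads. The intervals given are 95% intervals for counting error only, computed from approximate read numbers, and those on ratios compare 2 libraries rather than 2 conditions. Since library size was divided out, a loss of equal extent everywhere could not be seen, and fewer cells with the mark cannot be told apart from less mark per cell. Of 7 pluripotency genes, 6 carried H3K4me3 alone in −Dox cells, among them *SOX2* with 157 for H3K4me3 and 6.85 for H3K27me3. The exception was *POU5F1*, whose window was unmarked but lay 10049 bp from the canonical start and so did not cover that promoter. The window of *TDGF1*, 1 of the 6, was centred 3362 bp from its canonical start and did not contain that start either. The 3 mesenchymal genes *COL1A1*, *COL1A2* and *THY1* carried H3K4me3 alone as well, so this pattern does not by itself mark pluripotent cells.

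The stretches of 200 bases that end 51 bases before the measured start are shown for 4 of the genes, on GRCh37 and in the direction of transcription. They were shown because these promoters had the most different histories. In signal relative to library size, *OTX2* lost most of its H3K27me3 and *EN2* kept it, while *GBX2* had little of it and *GBX1* was weakly marked. Capitals mark CpG dinucleotides, since H3K27me3 in embryonic stem cells is typically found at CpG-rich promoters.
OTX2 (chr14:57277217-57277416, minus strand): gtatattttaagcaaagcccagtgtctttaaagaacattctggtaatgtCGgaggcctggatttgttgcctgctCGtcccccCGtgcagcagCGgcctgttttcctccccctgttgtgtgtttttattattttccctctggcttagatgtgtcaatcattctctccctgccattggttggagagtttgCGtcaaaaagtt
GBX1 (chr7:150871883-150872082, minus strand): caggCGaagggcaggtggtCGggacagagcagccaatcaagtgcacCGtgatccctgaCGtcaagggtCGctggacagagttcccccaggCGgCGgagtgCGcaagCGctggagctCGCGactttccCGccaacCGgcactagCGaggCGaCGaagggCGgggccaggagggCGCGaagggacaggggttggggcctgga
GBX2 (chr2:237077080-237077279, minus strand): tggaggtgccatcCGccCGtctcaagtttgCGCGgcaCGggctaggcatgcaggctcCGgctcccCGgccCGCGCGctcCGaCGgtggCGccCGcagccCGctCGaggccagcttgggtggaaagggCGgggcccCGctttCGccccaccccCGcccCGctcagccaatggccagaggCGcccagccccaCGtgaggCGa
EN2 (chr7:155250574-155250773, plus strand): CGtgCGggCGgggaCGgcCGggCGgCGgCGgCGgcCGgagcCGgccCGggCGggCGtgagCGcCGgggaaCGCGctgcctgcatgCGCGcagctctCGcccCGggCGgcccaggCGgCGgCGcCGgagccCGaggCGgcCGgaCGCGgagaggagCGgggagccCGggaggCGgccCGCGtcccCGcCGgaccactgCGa
These stretches hold 5 CpG in *OTX2*, 19 in *GBX1*, 24 in *GBX2* and 40 in *EN2*.

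In the wider sequence, though not in its centre, the 9 promoters shared a high CpG content. Over the whole 6001-base window *OTX2* had 301 CpG, *EN2* had 424 and *GBX2* had 413, against a median of 219 for bivalent promoters and 156 for all promoters with a known position. *GBX1* was the lowest of the 9 with 238. In the central 1001 bases *OTX2* stood apart with 28 CpG, and 5.39% of bivalent promoters had as few or fewer. *EN2* had 154 there, against a median of 75 for the 9 genes and 86 for bivalent promoters. Most CpG of the *OTX2* window thus lay outside its centre, as they did in the windows of the other genes.

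The genes lie on 4 chromosomes, namely *OTX1*, *EMX1*, *EN1* and *GBX2* on chromosome 2, *EN2* and *GBX1* on chromosome 7, *EMX2* and *VAX1* on chromosome 10 and *OTX2* on chromosome 14. The starts of *EMX2* and *VAX1* are 404445 bp apart, and the next closest, *EN2* and *GBX1*, are 4378992 bp apart. For *EMX2*, *EN1*, *EN2* and *GBX2* the measured start is the canonical one, and for *OTX2* and *VAX1* it lies 31 bp away from it. It lies 773 bp away in *OTX1* and 1259 bp away in *EMX1*, so these windows still contain the canonical start. The measured start of *GBX1* is 7051 bp upstream of the canonical one, so its window, centred on an alternative start, does not contain the canonical one and reaches into the neighbouring gene *ASB10*. *OTX2* has further annotated starts 4781 bp and 6245 bp away, which are also outside its window.

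Before induction most of these promoters were among the most strongly H3K27me3-marked in the genome. H3K27me3 was at least 100 at 7 of the 9 genes, compared with 1.88% of all promoters and 15.9% of bivalent promoters. In −Dox cells it was 199 at both *VAX1* and *EN1*, 174 at *EMX2*, 167 at *EN2*, 158 at *OTX1*, 146 at *EMX1* and 143 at *OTX2*. Neighbours in this order did not differ beyond their counting intervals, which ran from 169 to 232 at *VAX1* and from 118 to 172 at *OTX2*. *GBX1* was far lower at 30.05 (19.4 to 45.2), and *GBX2* at 5.70 (2.05 to 14.8) was near the median of all promoters, 6.09.

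The order of H3K4me3 was different. It was highest at *GBX2*, with 163 in −Dox cells, a level reached by 0.721% of all promoters. *OTX1* followed with 67.8 and *EMX1* with 67.3, and then *OTX2* with 40.7, *EMX2* with 40.5, *VAX1* with 33.6 and *EN2* with 25.4. The interval of *EN2* (16.9 to 37.2) included 20. *EN1* at 15.4 (8.67 to 24.6) and *GBX1* at 11.1 (5.88 to 19.9) were below 20. By these values 6 of the 9 promoters were bivalent, 2 (*EN1* and *GBX1*) carried H3K27me3 alone and 1 (*GBX2*) carried H3K4me3 alone, whereas 9.42% of all promoters were bivalent, 1.58% carried H3K27me3 alone, 54.2% carried H3K4me3 alone and 34.8% were unmarked. Of the pair of genes that meet at the midbrain-hindbrain boundary, both carried H3K4me3 and *OTX2* carried H3K27me3 as well. Although *OTX2* is known to be expressed in pluripotent cells, its window did not share the low H3K27me3 of *SOX2*.

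**Figure D1:**
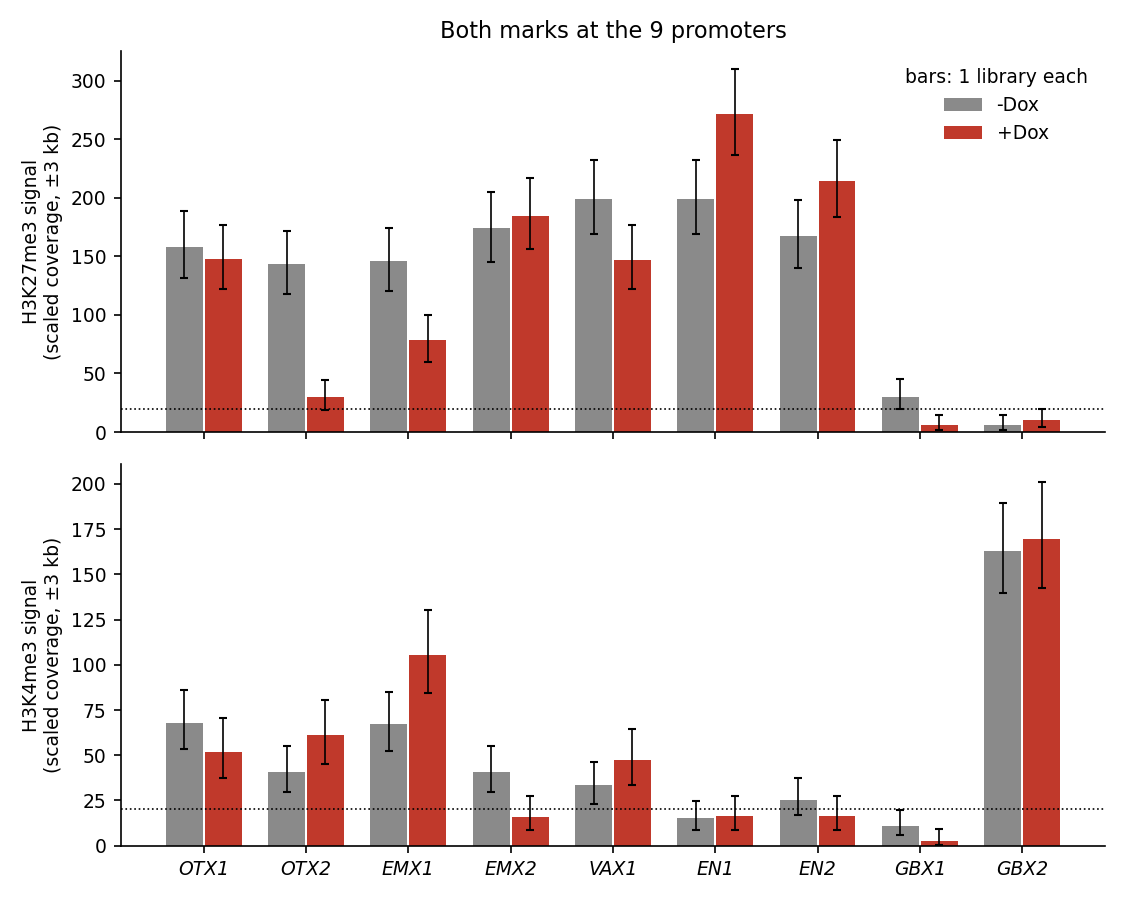
H3K27me3 (top) and H3K4me3 (bottom) signal of the 9 promoters, in scaled coverage summed over 3 kb on each side of the start, with 1 bar per library (grey, −Dox; red, +Dox), 95% counting intervals and a dotted line at the threshold of 20. H3K27me3 at OTX2 was 143 in −Dox and 30.2 in +Dox cells, while EN1 went from 199 to 271 and GBX2 was high for H3K4me3 only.

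Induction of JMJD3c was followed by different H3K27me3 values at the 9 promoters rather than by a shift of the whole group. H3K27me3 was lower in +Dox cells at 5 genes and higher at 4. It was lower at 11024 of the 19462 promoters with a ratio and at 1671 of the 1907 bivalent promoters. Among the 304 bivalent promoters with at least 100 for H3K27me3 in −Dox cells it was lower at 200. With equal library totals *OTX1* passed to the higher side with a ratio of 1.10. The ratio interval lay below 1 at *OTX2*, *EMX1*, *VAX1* and *GBX1*, above 1 at *EN1* and *EN2*, and included 1 at *OTX1*, *EMX2* and *GBX2*. Over all promoters with a ratio the interval lay below 1 at 7.00% and above 1 at 1.63%, and over bivalent promoters these shares were 48.1% and 2.25%. The median promoter held about 4.81 H3K27me3 reads in each library, so the shares over all promoters are not matched in depth to the strongly marked genes. With at least 100 for H3K27me3 in −Dox cells, 34.9% of bivalent promoters had an interval below 1 and 8.88% one above 1. With equal library totals these were 67 and 71 of the 304 promoters. The bivalent groups here and below were chosen by their −Dox values, which are also the denominator of the ratio. Counting error then favours ratios below 1 in these groups, by an amount that was not tested.

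*OTX2* (ENSG00000165588, window chr14:57274166-57280166) fell from 143 in −Dox to 30.2 in +Dox cells, about 113 against 24 reads. The ratio was 0.211 (0.128 to 0.326). In −Dox cells 0.949% of all promoters had as much H3K27me3 as *OTX2*, and in +Dox cells 4.59% did. Among the 304 bivalent promoters with at least 100 in −Dox cells, *OTX2* had the third lowest ratio, after *DUSP4* with 0.183 and *SIX6* with 0.205. A ratio below 0.5 was found at 12.5% of these promoters and at 21.5% of all promoters. The median promoter held only about 4.81 H3K27me3 reads in each library, and 7.00% of all promoters had an interval below 1. Because the value remained above 20 after the loss, the promoter was still classed as bivalent, although the interval of the +Dox value (19.1 to 44.3) included 20.

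*OTX1* (ENSG00000115507, chr2:63274192-63280192), the paralog of *OTX2*, had 158 before and 148 after induction, and the ratio of 0.933 had an interval (0.720 to 1.21) that included 1. The ratio of *OTX2* divided by that of *OTX1* was 0.226 (0.129 to 0.379), a comparison between promoters of the same libraries in which the scaling of the libraries cancels.

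The dorsal forebrain pair also differed. *EMX1* (ENSG00000135638, chr2:73140389-73146389) fell from 146 to 78.7, a ratio of 0.539 (0.389 to 0.737), and remained bivalent. *EMX2* (ENSG00000170370, chr10:119299257-119305257) had 174 without and 185 with Dox, and its ratio was 1.06 (0.840 to 1.35). The *EMX1* ratio divided by that of *EMX2* was 0.507 (0.336 to 0.753).

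*VAX1* (ENSG00000148704, chr10:118894812-118900812), on the same chromosome as *EMX2*, went from 199 to 147, a ratio of 0.740 (0.581 to 0.949). This interval reached above 1 after scaling to equal library totals (0.683 to 1.12), and also after scaling over promoters with little H3K27me3 (0.618 to 1.01).

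The 2 engrailed genes had a higher H3K27me3 signal, relative to library size, after induction. *EN1* (ENSG00000163064, chr2:119602224-119608224) rose from 199 to 271, a ratio of 1.37 (1.11 to 1.69), and 0.143% of all promoters had as high a value in +Dox cells. *EN2* (ENSG00000164778, chr7:155247824-155253824) rose from 167 to 214, a ratio of 1.28 (1.02 to 1.62). Both other scalings multiply every H3K27me3 ratio by a factor above 1 (1.18 and 1.06). They could only move these intervals further above 1 and so are no test of the rise. The *EN1* ratio divided by that of *EN2* was 1.07 (0.775 to 1.46), so the pair was not distinguishable at this depth. Since the values are relative to each library, a ratio above 1 does not show that the amount of H3K27me3 per cell increased.

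The windows of the gastrulation brain homeobox genes had the lowest H3K27me3 of the 9 in −Dox cells, with *GBX1* above the threshold of 20 and *GBX2* below it. *GBX1* (ENSG00000164900, chr7:150868832-150874832) went from 30.05 to 5.97, about 24 against 5 reads, a ratio of 0.199 (0.0609 to 0.546), and from H3K27me3-only to unmarked. These values describe an alternative annotated start of *GBX1* and not its canonical promoter. *GBX2* (ENSG00000168505, chr2:237074029-237080029) had 5.70 and 10.1, or about 5 and 8 reads, too few to detect a change, with a ratio of 1.76 (0.452 to 6.09). The *GBX1* ratio divided by that of *GBX2* was 0.113 (0.0231 to 0.705).

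**Figure D2:**
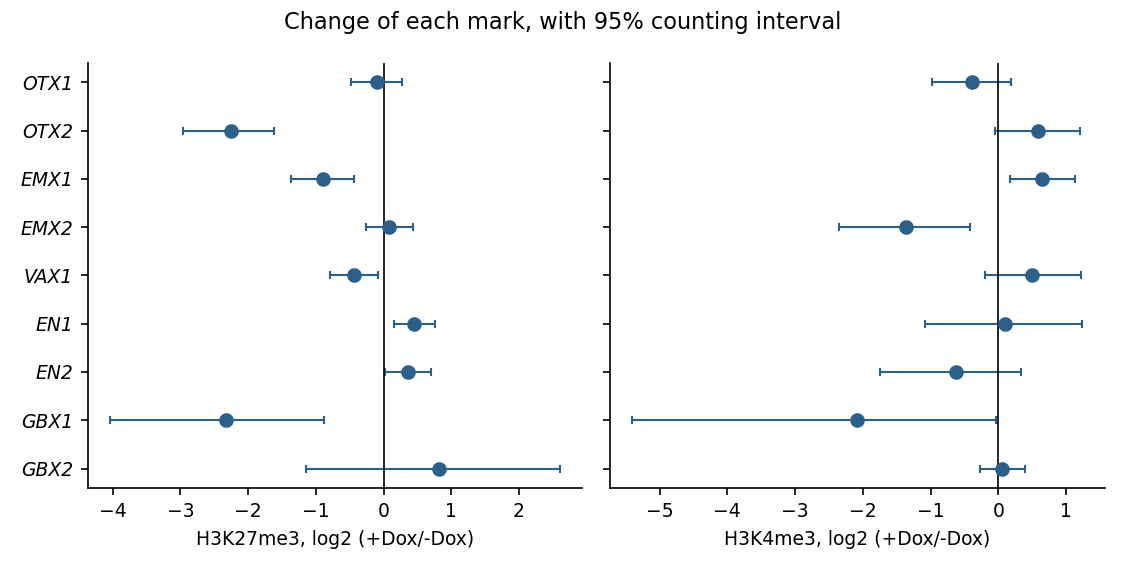
Log2 ratio of +Dox to −Dox signal for H3K27me3 (left) and H3K4me3 (right) at the 9 promoters, with points for the ratio of 1 library to 1 library and bars for the 95% counting interval. For H3K27me3 the intervals of OTX2, EMX1, VAX1 and GBX1 lie below 0 and those of EN1 and EN2 above it, and for H3K4me3 only those of EMX1, EMX2 and GBX1 exclude 0.

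Ratios lay above 1 at some genes and below 1 at others. The log2 H3K27me3 ratio had a median of −0.10 over the 9 genes, compared with −0.15 over all promoters and −0.81 over bivalent promoters. Scaling the libraries to the same total adds 0.23 to every log2 H3K27me3 ratio and made this median 0.13, so the values assigned no direction to the group. Bivalent promoters that started from at least 100 had a median log2 ratio of −0.22. Both bivalent groups were chosen by −Dox values, which favours low ratios, whereas the 9 genes were chosen by symbol. A ratio below 0.5 was found at 2 of the 9 genes (*OTX2* and *GBX1*), against 21.5% of all and 40.8% of bivalent promoters. A ratio below 0.66 was found at 3, with *EMX1* added, against 33.6% of all, 61.4% of bivalent and 26.6% of the strongly marked bivalent promoters.

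**Figure D3:**
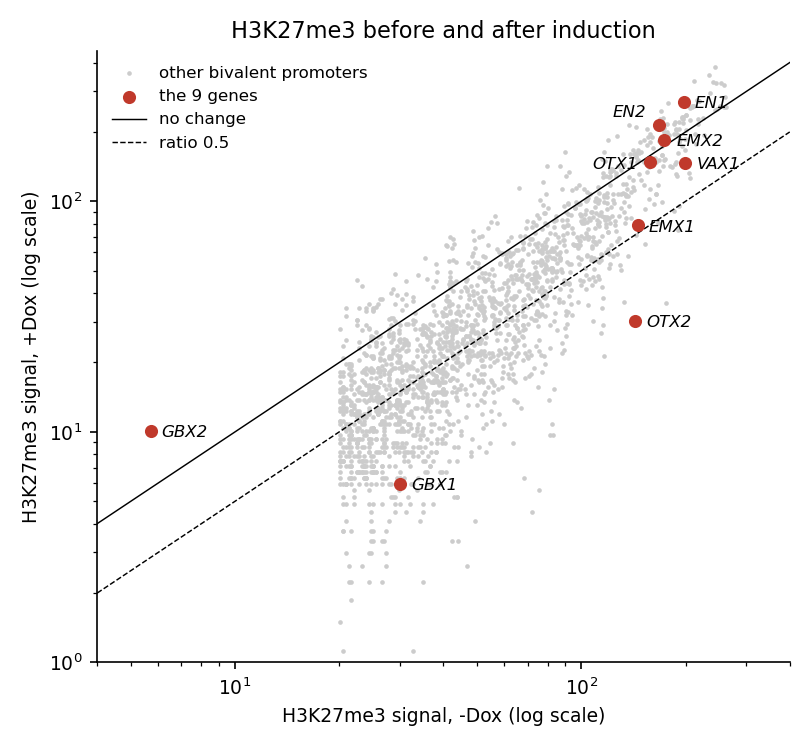
H3K27me3 signal in −Dox (horizontal, log scale) against +Dox cells (vertical, log scale) for the 9 genes in red and the other bivalent promoters in grey, with lines at no change and at a ratio of 0.5. OTX2 lies below most bivalent promoters of similar −Dox level, and EN1 and EN2 lie above the line of no change.

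H3K4me3 at the same promoters was examined next. The interval lay above 1 at *EMX1*, below 1 at *EMX2* and *GBX1*, and included 1 at the other 6 genes. Over all promoters with a ratio it lay above 1 at 1.84% and below 1 at 3.12%, and over bivalent promoters at 1.57% and 10.1%. A ratio below 0.5 was found at 2 of the 9 genes, *EMX2* and *GBX1*, against 5.33% of all promoters, 4.30% of bivalent promoters and 9.54% of those with at least 100 for H3K27me3. In the last group the H3K4me3 interval lay below 1 at 18.4% and above 1 at 2.30%. *EMX1* rose from 67.3 to 105, a ratio of 1.56 (1.13 to 2.18), and the promoter is 1 of 25 (1.31%) among the bivalent promoters at which the H3K27me3 interval lay below 1 and the H3K4me3 interval above 1. *EMX2* fell from 40.5 to 15.7, about 43 against 13 reads, a ratio of 0.387 (0.195 to 0.749). Its H3K4me3 thereby passed below the threshold of 20, and the promoter was classed as H3K27me3-only in +Dox cells. The *EMX1* ratio divided by that of *EMX2* was 4.04 (1.90 to 8.63).

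*OTX2* had H3K4me3 values of 40.7 and 61.1, a ratio of 1.501 (0.970 to 2.30), and *OTX1* had 67.8 and 51.8, a ratio of 0.764 (0.509 to 1.13). Neither interval excluded 1, but the *OTX2* ratio divided by that of *OTX1* was 1.96 (1.08 to 3.55). *VAX1* had 33.6 and 47.4, a ratio of 1.41 (0.874 to 2.32). *EN1* stayed low with 15.4 and 16.4, a ratio of 1.07 (0.470 to 2.36), and *EN2* had 25.4 and 16.4, a ratio of 0.647 (0.298 to 1.26), which placed it in the H3K27me3-only class after induction. The *EN1* ratio divided by that of *EN2* was 1.65 (0.561 to 5.07).

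*GBX2* held the highest H3K4me3 of the group in both conditions, with 163 and 169.6, a ratio of 1.04 (0.826 to 1.31). *GBX1* went from 11.1 to 2.61, about 12 against 2 reads, a ratio of 0.235 (0.0237 to 0.980). That interval reached to 1.004 after scaling to equal library totals. The *GBX1* ratio divided by that of *GBX2* was 0.225 (0.0225 to 0.967). In all, 4 pairs of paralogs were compared for both marks, and the interval excluded 1 for both marks in the *OTX*, *EMX* and *GBX* pairs and for neither mark in the *EN* pair. The *GBX* comparison used an alternative start of *GBX1* and rested on few reads, so it does not compare the canonical promoters of that pair.

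The 2 marks moved in opposite directions at 5 of the 9 promoters by their point values, compared with 42.2% of bivalent and 49.1% of all promoters. *OTX2*, *EMX1* and *VAX1* had less H3K27me3 and more H3K4me3, as did 31.1% of bivalent promoters, whereas *EMX2* and *EN2* had the reverse, as did 11.1%. Of these 5 genes, only *EMX1* had ratio intervals that excluded 1 for both marks. With equal library totals *OTX1* also had the reverse. The balance of the signals illustrates this, although the scales of different antibodies cannot be equated. H3K27me3 divided by H3K4me3 was 3.52 at *OTX2* in −Dox and 0.494 in +Dox cells, and 2.17 and 0.748 at *EMX1*. It was 4.30 and 11.8 at *EMX2*, 6.60 and 13.1 at *EN2*, and 12.9 and 16.5 at *EN1*, the highest of the group in both conditions. Among bivalent promoters H3K27me3 exceeded H3K4me3 at 51.2% in −Dox and at 35.1% in +Dox cells. After induction 4 of the 9 promoters were bivalent (*OTX1*, *OTX2*, *EMX1* and *VAX1*), 3 carried H3K27me3 alone (*EMX2*, *EN1* and *EN2*), *GBX2* carried H3K4me3 alone and *GBX1* was unmarked. *EMX2* and *EN2* left the bivalent class on about 13 H3K4me3 reads each, with intervals in +Dox cells at *EMX2* and at *EN2* of 8.58 to 27.6 that included 20. Over all promoters these +Dox classes held 5.07%, 1.66%, 57.6% and 35.7%, in the same order. Of the promoters that were bivalent in −Dox cells, 51.0% were still bivalent, a share that the choice by −Dox values tends to lower.

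A list of 28 other genes of early brain regions was examined next. In −Dox cells 15 were bivalent, 5 carried H3K27me3 alone, 3 carried H3K4me3 alone and 5 were unmarked. The H3K27me3 interval lay below 1 at 6 genes, above 1 at 1 gene and included 1 at 21, whereas with equal library totals it lay below 1 at 5 and above 1 at 7. The median log2 H3K27me3 ratio was −0.10, as in the 9 genes, and became 0.13 with scaling to the same total. The changes were uneven here as well. Among forebrain genes *SIX6*, a regulator of eye and pituitary development, fell from 176 to 36.2, a ratio of 0.205 (0.132 to 0.307), and its relative *SIX3* fell from 50.2 to 16.8, a ratio of 0.334 (0.172 to 0.644). *FEZF1* had a ratio of 0.263 (0.0719 to 0.673), and its window was centred 5941 bp from the canonical start. *NKX2-1*, which specifies the ventral forebrain, was the gene with an interval above 1, as H3K27me3 rose from 229.7 to 304, a ratio of 1.32 (1.08 to 1.61).

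Of the genes that act with *EN1* and *EN2* at the midbrain and isthmus, *PAX5* had the lowest H3K27me3 ratio of the list, 0.118 (0.0145 to 0.562), at a promoter just below the threshold with a value of 19.0, about 15 reads against 2. *LMX1A*, a regulator of dopaminergic neurons, had a ratio of 0.691 (0.510 to 0.936), and with equal library totals the interval included 1 (0.601 to 1.10). *WNT1*, *PAX2* and *PAX8* had ratios of 1.02, 1.07 and 1.13 with intervals that included 1. With equal library totals the interval of *PAX8* lay above 1 (1.02 to 1.72). *FGF17*, a secreted factor of the isthmus, had the highest H3K27me3 ratio of the list, 1.47 (0.375 to 5.48), on about 5 against 7 reads. The relatives of *OTX2* differed in class, since *GSC* was bivalent with a ratio of 0.795 (0.591 to 1.07) and *CRX*, a photoreceptor regulator, was unmarked.

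H3K4me3 in this list had an interval above 1 at *SIX6* only, which rose from 59.8 to 145, a ratio of 2.43 (1.77 to 3.36), and below 1 at *PAX5* (0.568, 0.385 to 0.832) and *FEZF2* (0.478, 0.236 to 0.941). The highest H3K4me3 ratio by value was 2.23 (0.709 to 8.95) at the unmarked *FGF17*. The lowest, 0.171 (0.00415 to 1.45), was that of *DMBX1*, an unmarked promoter with a value of 6.55 in −Dox cells. The median log2 H3K4me3 ratio of the list was −0.34, compared with 0.06 in the 9 genes, −0.03 over all promoters, −0.18 over bivalent promoters and −0.31 over those with at least 100 for H3K27me3.

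**Figure D4:**
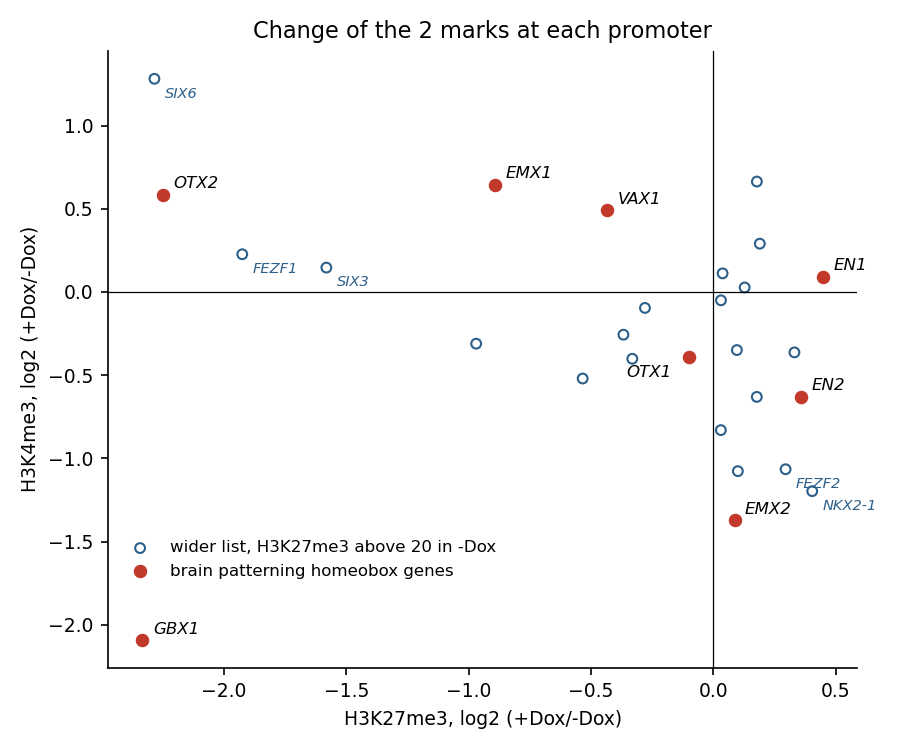
Log2 ratio of +Dox to −Dox signal for H3K27me3 (horizontal) and H3K4me3 (vertical) at promoters above 20 for H3K27me3 in −Dox cells, with 8 of the 9 genes in red and 20 genes of the wider list as open circles. OTX2 and SIX6 lie at the upper left, with H3K27me3 ratios of 0.211 and 0.205 and H3K4me3 ratios of 1.501 and 2.43, and EMX2 lies at the lower right.

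The promoters most like *OTX2* over the 4 libraries, by Euclidean distance in log2(value + 1), were *PAX7* (distance 0.38), *FOXA2* (0.57) and *CHSY3* (0.68). *PAX7*, a muscle and neural crest factor, had H3K27me3 values of 133 and 36.5 and H3K4me3 values of 34.2 and 63.4. *FOXA2*, an endoderm and floor plate factor, had H3K27me3 values of 114 and 26.8 and H3K4me3 values of 51.01 and 74.9. The nearest to *GBX1*, the gene with the lowest H3K27me3 ratio, were *CST1* (0.18), *C11orf85* (0.53) and *DCAF12L2* (1.00). Like *GBX1*, they had H3K27me3 above 20 in −Dox and below 20 in +Dox cells, and H3K4me3 below 20 in both. A distance over 4 libraries describes these values and no relation between the genes.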

How the data were processed

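The authors sequenced the libraries on a MiSeq (single-end), mapped reads to hg19 with Bowtie2, left out mitochondrial reads and computed coverage with ngs.plot. Versions of these tools are not given in the sources used here. The deposited values are signal, namely coverage scaled to library reads and summed over 3 kb on each side of 1 transcription start per Ensembl gene. Whether the profile scaling named in the study's methods was applied is not stated, and no input was used here.

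All values in a file were multiples of a fixed step, taken as 1 read at 1 data point (tolerance 0.01 of a step). The histogram of low values had peaks 3.29 to 3.39 steps apart, and their mean was used as data points per read. Approximate reads gave exact Poisson intervals for values, Clopper-Pearson intervals for ratios and conditional exact intervals for the ratio of 2 ratios (scipy 1.17.1), all for counting error only. The procedure was tested on simulated data. Ratios used no pseudocount, and promoters at 0 in −Dox were left out. Starts were matched by transcript identifier to GENCODE 44 on GRCh37, the assembly behind hg19 (18244 of 20242 matched), and sequences were read from GRCh37.

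The 9 genes were named by symbol. From the wider list, genes were named where a ratio interval excluded 1 or the ratio was lowest or highest, and for *OTX2* and the gene with the lowest H3K27me3 ratio the 3 nearest promoters were named. *DUSP4*, *GSC*, *CRX*, *WNT1*, *PAX2* and *PAX8* were added after their values were seen. The values of 1 gene that the rule names are not reported here. The genes and lists were chosen with earlier results of these data known. Alternatives were 2 other scalings of the libraries, a pseudocount of 5, a minimum mean of 20 and class thresholds of 10 and 30.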

Additional observations from a re-analysis of the deposited data

How the results depend on the processing

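Counts of genes and medians were recomputed under each alternative. With a minimum mean of 20 over both conditions, 7 genes were left for each mark, and 1 gene instead of 2 had a ratio below 0.5 for H3K27me3 (*OTX2*) and 1 instead of 2 for H3K4me3 (*EMX2*), because *GBX1* did not reach the minimum. With a pseudocount of 5, 0 genes of the wider list instead of 4 had an H3K4me3 ratio below 0.5. Over the 9 genes the median log2 ratio lay between −0.10 and 0.13 for H3K27me3 and for H3K4me3 between −0.02 and 0.10, so the sign of both depended on the scaling. The number of bivalent promoters among the 9, 6 at a class threshold of 20, was 8 at a class threshold of 10, 5 at 30 and 4 with +Dox values. All 68 recomputed ratios of single genes stayed within their counting intervals. That check was weak, since each scaling multiplies all ratios of a mark by 1 constant and the minimum mean changes none. The interval came to include 1 at *VAX1* for H3K27me3 under both scalings and at *GBX1* for H3K4me3 with equal library totals. No paired analysis was possible because every mark and condition had a single library, which also leaves nothing to omit in turn. Depth limits the readings at *GBX1* and *GBX2* for H3K27me3 and at *EN1*, *EN2* and *GBX1* for H3K4me3. It also limits H3K4me3 at *EMX2* in +Dox cells.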
